A study of Mus musculus with 2 samples.

Results

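The 9 genes of the miR-99/100, let-7 and miR-125 clusters were described in the adrenal glands of newborn mice. They were the members of 3 clusters on chromosomes 16, 9 and 17, found by matching the Ensembl identifiers of the 1973 measured miRNA genes to GENCODE mouse symbols. The rule used the annotation and no level or ratio, although the clusters were picked for description with earlier results of these data known. Small RNA was sequenced from 2 pups of the mouse strain B6NCrl on postnatal day 0, with 1 library per pup, made from both of its adrenals, that covered RNA under 30 nucleotides. The pups came from 1 pregnancy and form a single group without treatment, mutation or second tissue, and their sex was not collected. The labels name separate pups and give both the same donor identifier. The pups were taken as separate animals, and if the identifier meant 1 animal, each spread given here would be technical. With 1 library per pup no test of a difference between pups was possible, so every SD is over n = 2 and intervals cover counting error only.

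MicroRNAs (miRNAs) are cut from hairpin precursors and guide repression of transcripts that pair with their seed, bases 2 to 8 of the mature strand. Clusters that hold a miR-99/100 gene, a let-7 gene and a miR-125 gene are an ancient arrangement in animal genomes. As single genes, let-7 and the miR-125 relative lin-4 were first known as developmental timing genes of worms. In vertebrates let-7 is known to accumulate as cells differentiate and to be held back by the RNA-binding protein LIN28. The miR-99/100 family is known for pairing with transcripts of the mTOR and insulin-like growth factor pathway. The miR-125 family is known from blood cell development and also targets LIN28.

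The mature 5p sequences are shown because the members fall into 3 seed groups, and because some of the sequences occur at more than 1 gene. All 9 member genes had a mature entry in RefSeq (GRCm38.p6), with let-7e listed under Mirlet7e. The let-7a sequence is listed under Mirlet7a-1, and it also stands in the hairpin of Mirlet7a-2. Capitals mark the seed.
miR-99a-5p: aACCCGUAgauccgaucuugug
miR-100-5p: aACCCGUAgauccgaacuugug
miR-99b-5p: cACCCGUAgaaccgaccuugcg
let-7c-5p: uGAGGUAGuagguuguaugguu
let-7a-5p: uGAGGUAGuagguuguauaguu
let-7e-5p: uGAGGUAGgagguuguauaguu
miR-125b-5p: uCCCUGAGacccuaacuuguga
miR-125a-5p: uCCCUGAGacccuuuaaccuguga

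Counting from 1 at the 5′ end, miR-99a-5p and miR-100-5p differed by U16A alone, while miR-99a-5p and miR-99b-5p differed at 4 positions (A1C, U11A, U16C and U21C). Let-7a-5p differed from let-7c-5p by A19G and from let-7e-5p by U9G. The miR-125b and miR-125a strands shared their first 13 bases and then diverged. Outside the seed, miR-100-5p and miR-125b-5p had a run of 8 bases in common, AACUUGUG, near their 3′ ends. The let-7c sequence is carried by 2 annotated genes, Mirlet7c-1 and Mirlet7c-2, let-7a by Mirlet7a-2 and Mirlet7a-1, and miR-125b by Mir125b-1 and Mir125b-2. The other 5 sequences each belong to 1 gene.

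That difference bears on every level below. The gene counts leave out reads that mapped to several loci, which were 34.9% of all reads in pup 1 and 32.2% in pup 2. Mirlet7c-1 and Mirlet7c-2 are identical over 23 bases that hold the whole 5p strand, and so are Mirlet7a-2 and Mirlet7a-1. For the miR-125b genes this stretch was not measured, because Mir125b-2 had no hairpin entry. The 3p strands of all 9 genes each occur at 1 annotated gene. Those of the 4 genes with a shared 5p strand are shown, since they are mature strands that belong to a single annotated gene, with the seed again in capitals.
let-7c-1-3p: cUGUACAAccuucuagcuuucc
miR-125b-2-3p: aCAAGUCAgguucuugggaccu
let-7a-2-3p: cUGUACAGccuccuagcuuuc
miR-125b-1-3p: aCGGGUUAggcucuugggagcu

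The counts do not tell 5p from 3p reads, so how much of each level came from either strand was not tested. Levels are given in CPM, the count scaled to a same-strand miRNA gene total of 1000000. That total was 1131762 in pup 1 and 3327743 in pup 2. The mature strands are 21 to 24 bases long, and no length scaling was applied.

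On mm10, Mir99a (ENSMUSG00000065530.1, chr16:77598936-77599000), Mirlet7c-1 (ENSMUSG00000065557.2, chr16:77599657-77599750) and Mir125b-2 (ENSMUSG00000065472.1, chr16:77646273-77646343) lie on the plus strand in introns of the noncoding host transcript Mir99ahg. Mir125b-2 also overlaps the unclassified transcript C130023A14Rik. A gap of 656 bases separates Mir99a from Mirlet7c-1, and 46522 bases separate Mirlet7c-1 from Mir125b-2. Mir100 (ENSMUSG00000093011.1, chr9:41531425-41531504), Mirlet7a-2 (ENSMUSG00000092770.1, chr9:41536716-41536811) and Mir125b-1 (ENSMUSG00000093354.1, chr9:41581926-41582002) lie on the plus strand in introns of the noncoding transcript 3110039I08Rik, with gaps of 5211 and 45114 bases. Mir125b-1 also overlaps an exon of the transcript Gm28119. Mir99b (ENSMUSG00000065396.1, chr17:17830188-17830257) and Mirlet7e (chr17:17830352-17830444) lie in an intron of the protein-coding gene Spaca6. Mir125a (ENSMUSG00000065479.1, chr17:17830812-17830879) lies in an exon of 1 Spaca6 transcript and in an intron of 2 others. The chromosome 17 cluster spans 692 bases in all, against 47.4 kb for chromosome 16 and 50.6 kb for chromosome 9.

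Let-7e was read through another gene. Gm25927 (ENSMUSG00000092799.1, chr17:17830343-17830459) is a minus-strand miRNA gene that covers the whole plus-strand hairpin of Mirlet7e, with 9 bases to spare on one side and 15 on the other. It had 0 counts on its own strand in both pups, and 13886 and 23408 counts on the opposite strand. These were 35.3% and 22.3% of that column. Gm25927 had the highest opposite-strand level of any gene by mean and in pup 1, while in pup 2 Gm24321 had more, with 30339 counts. The other 8 members had 0 counts on the opposite strand in both pups. The let-7e hairpin is printed with its 5p strand (bases 15 to 36) and its 3p strand (bases 60 to 81) in capitals.
Mirlet7e: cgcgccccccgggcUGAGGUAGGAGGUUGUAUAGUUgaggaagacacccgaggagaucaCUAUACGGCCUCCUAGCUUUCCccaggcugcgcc

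The 3 clusters together held 7.56% of miRNA counts in pup 1 (95% Clopper-Pearson interval 7.51 to 7.61) and 8.09% in pup 2 (8.06 to 8.12), or 7.83% ± 0.376 (SD, n = 2). For shares, the let-7e reads were added to the same-strand total, and multi-mapped reads were left out. The chromosome 17 cluster took 3.81% ± 0.543, the chromosome 16 cluster 3.51% ± 0.797 and the chromosome 9 cluster 0.510% ± 0.122. The order of the first pair differed between the pups: chromosome 17 led in pup 1 with 4.19% against 2.95%, and chromosome 16 led in pup 2 with 4.07% against 3.42%. Without let-7e the chromosome 17 cluster took 2.88% on the mean of the pups, below that of chromosome 16 at 3.54%. In pup 1 chromosome 17 still led without it, with 19968 counts from Mir99b and 14150 from Mir125a against 33753 on chromosome 16. The chromosome 9 cluster was the lowest in both pups, with 0.424% and 0.596%.

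Among reads assigned to a single locus, the miR-99/100 genes had the highest level of their cluster on all 3 chromosomes, in both pups. On chromosomes 16 and 9 the other members share their 5p strand with a second gene, so their multi-mapped reads are missing from this comparison. Mir99a had 28721 CPM in pup 1 and 40203 CPM in pup 2, which ranked it 13th and 6th among all genes by same-strand level. Such ranks leave out genes read on the opposite strand, among them let-7e, which stood above Mir100 in both pups. Mir99b had 17643 and 18159 CPM and ranked 16th and 17th. Mir100, whose strand differs from miR-99a at a single base, had 3267 and 5201 CPM and ranked 44th and 35th. The pups did not overlap between these genes, since the lower pup of Mir99a stood above the higher pup of Mir99b, and likewise for Mir99b over Mir100. Mir99a exceeded Mir100 by 8.79-fold in pup 1 and 7.73-fold in pup 2.

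The let-7 genes of the clusters differed by more than an order of magnitude in reads assigned to a single locus. Let-7e, read through Gm25927, had 12269 CPM in pup 1 and 7034 CPM in pup 2. Mirlet7c-1 had 649 and 371 CPM, and Mirlet7a-2 had 511 and 389 CPM. All 3 were lower in pup 2, and the pup ranges of Mirlet7c-1 and Mirlet7a-2 overlapped. Let-7e gave 91.4% and 90.2% of the let-7 counts of the clusters, from which the multi-mapped reads of the other let-7 members are left out. The ratio of Mirlet7c-1 to let-7e was 0.0529 in pup 1 and 0.0528 in pup 2, although both genes were lower in pup 2.

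The miR-125 genes had the same division. Mir125a had 12503 CPM in pup 1 and 9276 CPM in pup 2, with ranks of 22 and 26. Mir125b-1 had 510 and 412 CPM, and Mir125b-2 had 454 and 444 CPM. The ranges of the miR-125b genes overlapped, and so did those of Mir125a and let-7e. Mir125a gave 92.8% and 91.5% of the miR-125 counts, from which the multi-mapped reads of the miR-125b genes are left out.

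The genes that share these 5p strands from outside the clusters had levels of the same size, with a mean of 560 CPM for Mirlet7a-1 and 887 CPM for Mirlet7c-2.

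Ordered by mean CPM, the members were Mir99a, Mir99b, Mir125a, let-7e, Mir100, Mirlet7c-1, Mir125b-1, Mirlet7a-2 and Mir125b-2. The last 4 lay between 449 and 510 CPM with overlapping pup ranges, and they were the 4 genes whose 5p strand is carried by a second gene. The other 5 lay between 4234 and 34462 CPM. The 5 genes with a 5p strand of their own held 7.64% ± 0.411 of counts and the 4 others 0.185% ± 0.0348. Mir100 exceeded Mirlet7c-1, its neighbour in the order, by 5.04-fold in pup 1 and 14.0-fold in pup 2. How many of the multi-mapped reads belonged to the 4 low genes was not tested, so their levels cover only the reads assigned to a single locus.

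**Figure D1:**
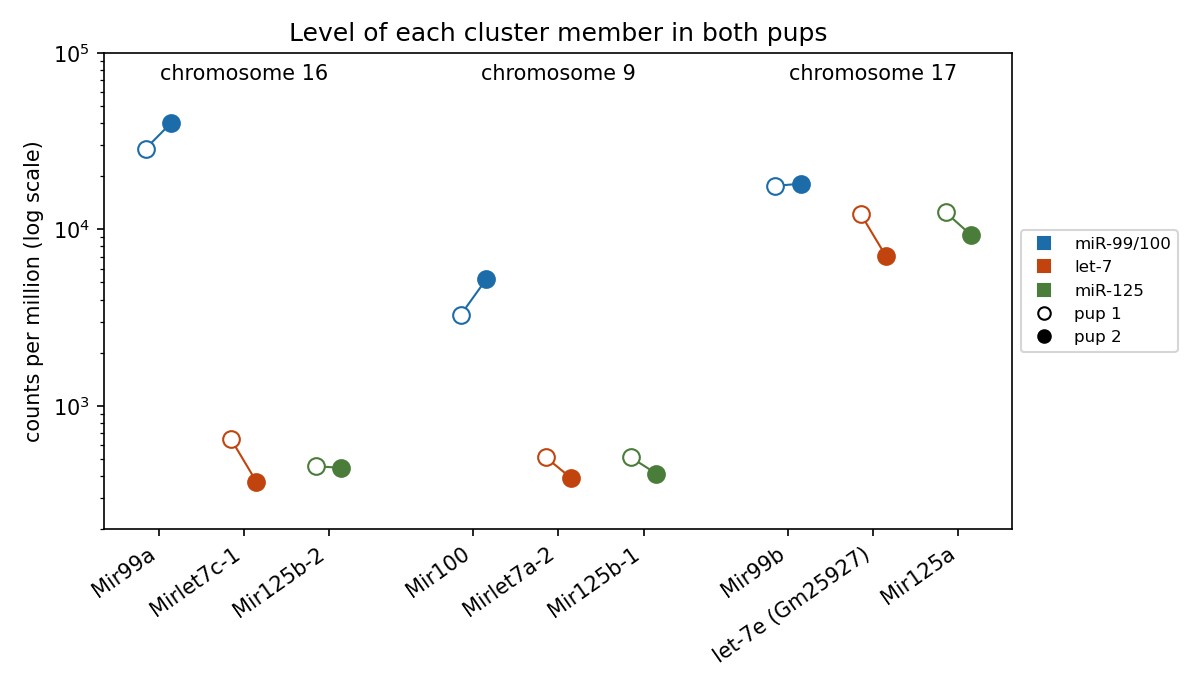
Level of each cluster member in CPM (log axis), with open points for pup 1, filled points for pup 2 and colours for the 3 families. Mir99a, Mir100 and Mir99b stand highest in their clusters, and Mirlet7c-1, Mir125b-2, Mirlet7a-2 and Mir125b-1 lie together between 371 and 649 CPM. Multi-mapped reads are not counted.

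Within the clusters, the balance of the members in counted reads differed by chromosome. Mir99a made up 96.3% of the chromosome 16 cluster in pup 1 and 98.0% in pup 2. Mir100 made up 76.2% and 86.7% of the chromosome 9 cluster, with the rest divided between Mirlet7a-2 (11.9% and 6.48%) and Mir125b-1 (11.9% and 6.87%). The chromosome 17 cluster, in which every member has a 5p strand of its own, was the most even. There Mir99b had 41.6% and 52.7%, Mir125a 29.5% and 26.9%, and let-7e 28.9% and 20.4%. On chromosomes 16 and 9 the let-7 and miR-125 members have a 5p strand that a second gene carries. Multi-mapped reads are not counted, and their part in the difference between the clusters was not tested. In all 3 clusters the share of the miR-99/100 gene was larger in pup 2 and that of the let-7 gene smaller.

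**Figure D2:**
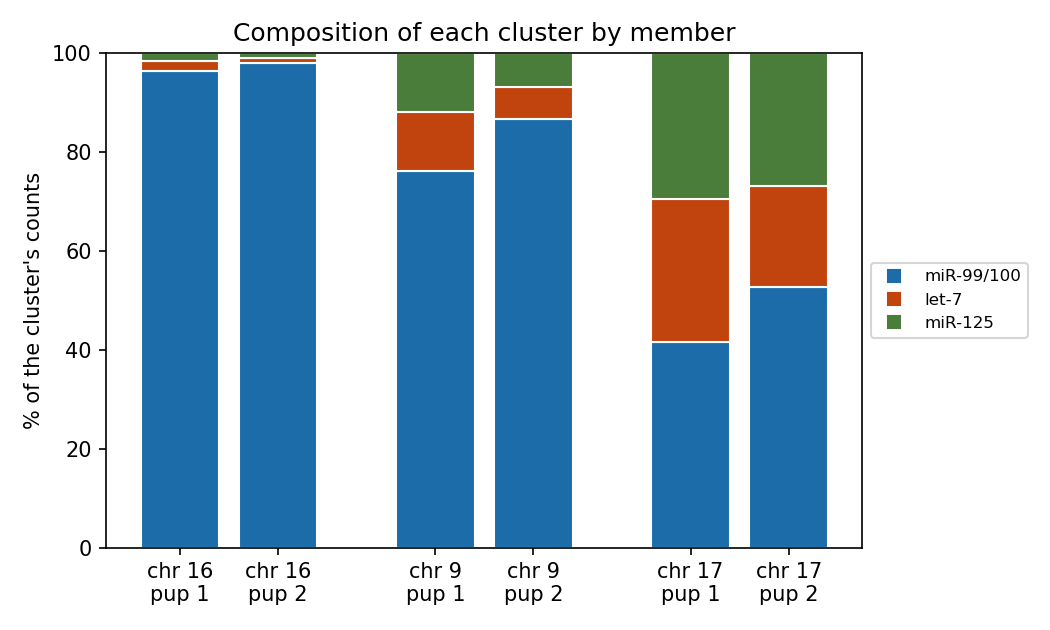
Percent of each cluster's counts by member family, with 1 bar per cluster and pup. Multi-mapped reads are not counted. The miR-99/100 part is larger in pup 2 in every cluster, from 41.6% to 52.7% on chromosome 17.

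Between the pups, on the CPM scale, all 3 miR-99/100 genes were higher in pup 2 and all 3 let-7 genes lower. By plain ratio of CPM, pup 2 over pup 1, Mir99a was at 1.40 (95% counting interval 1.38 to 1.42), Mir100 at 1.59 (1.54 to 1.65) and Mir99b at 1.03 (1.01 to 1.05). The let-7 genes were at 0.573 for Mirlet7c-1 (0.522 to 0.628), 0.573 for let-7e (0.561 to 0.586) and 0.761 for Mirlet7a-2 (0.690 to 0.841). The miR-125 genes were at 0.979 for Mir125b-2 (0.885 to 1.08), 0.809 for Mir125b-1 (0.733 to 0.893) and 0.742 for Mir125a (0.727 to 0.757). In each of the 3 clusters the order of the ratios was miR-99/100, miR-125, let-7, although on chromosome 9 the intervals of Mir125b-1 and Mirlet7a-2 overlapped.

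None of the members differed 2-fold between the pups (0 of 9), where 5.28% of the 284 genes averaging 10 CPM or more did, 3.52% higher in pup 2 and 1.76% lower. This count was 0 under each alternative scaling, prior, column and filter tried. The wider filter and the larger prior could not have raised it. All 9 members already averaged 10 CPM or more, and a larger prior only shrinks ratios. The 284 genes were picked by same-strand level, so let-7e, read on the opposite strand, is not among them. On the log2 scale with a prior of 1 CPM, 3 of 9 members were higher in pup 2, against 58.1% of all 284 genes, and 6 were lower, against 41.9%. The median log2 ratio of the members was -0.31, beside 0.08 for all 284 genes, whose quartiles were -0.22 and 0.36. Scaling by TMM factors moved the median of all genes up by 0.10, and Mir125b-2 then stood at 0.07 in place of -0.03, which made 4 of 9 members higher. Mir100 had a larger log2 ratio (0.67) than 91.2% of the 284 genes. Mir99b (0.04) had a larger one than 47.9% of the 284 and stood below their median. Mirlet7c-1 and let-7e, both at -0.80, were lower than all but 2.11% of them.

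**Figure D3:**
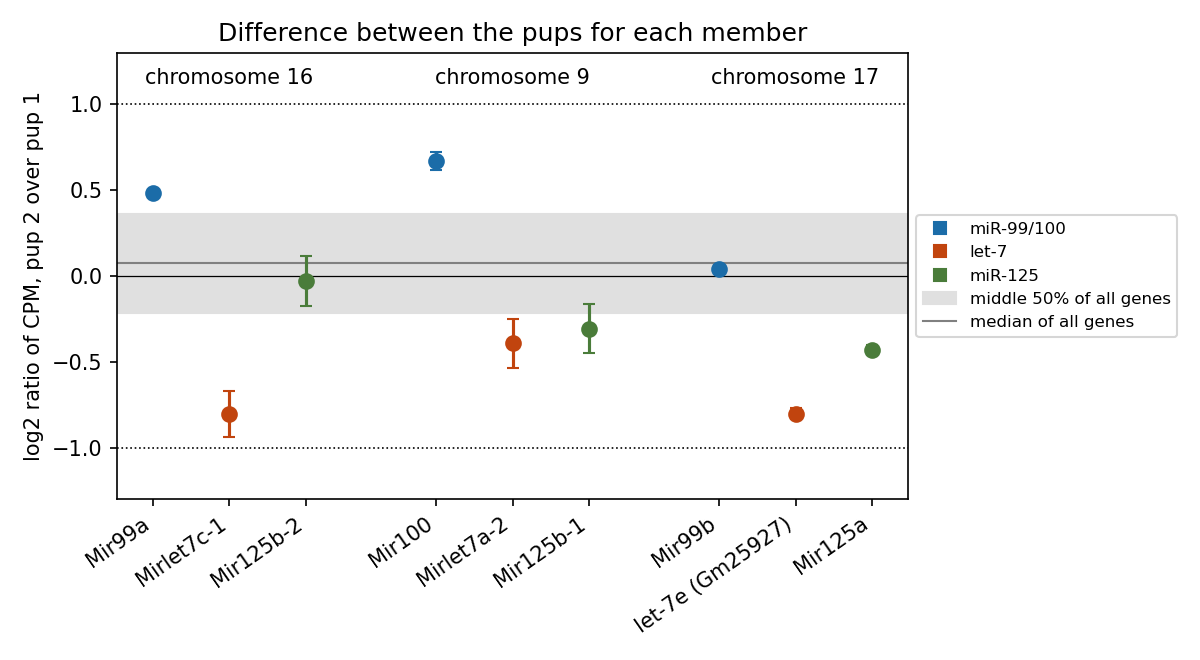
Log2 ratio of plain CPM, pup 2 over pup 1, for each member with its 95% counting interval, over a band from the lower to the upper quartile of the 284 genes averaging 10 CPM or more. The dotted lines mark 2-fold, which no member reached, and in each cluster the let-7 gene has the lowest ratio.

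Ratios between genes of the same library do not depend on how the libraries are scaled. They cover only reads assigned to a single locus. Mir99a exceeded Mirlet7c-1 by 44.3-fold in pup 1 and 108-fold in pup 2, a margin 2.44 times as large (2.23 to 2.68). Mir100 exceeded Mirlet7a-2 by 6.40-fold and 13.4-fold, a margin 2.09 times as large (1.88 to 2.32). Mir99b exceeded let-7e by 1.44-fold and 2.58-fold, a margin 1.80 times as large (1.75 to 1.84). The miR-99/100 gene thus stood further above the let-7 gene in pup 2 in all 3 clusters, by more than counting error. The miR-99/100 gene also stood further above the miR-125 gene, by 1.43 times (1.29 to 1.58) on chromosome 16, 1.97 times (1.77 to 2.18) on chromosome 9 and 1.39 times (1.35 to 1.42) on chromosome 17. Pup 2 over pup 1, the ratio of Mir125a to let-7e was 1.29 times as large (1.26 to 1.33) and that of Mir125b-2 to Mirlet7c-1 was 1.71 times as large (1.49 to 1.96). For Mir125b-1 to Mirlet7a-2 it was 1.06 times, with an interval from 0.925 to 1.22. With 2 animals, the spread of these ratios among pups in general could not be estimated, and depth differed with the pup.

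These pairs were set beside other adjacent miRNA genes, a comparison chosen after the values were seen. Outside the 3 clusters, 83 pairs of neighbours on the same strand lay within 50 kb of each other with both genes averaging 10 CPM or more. Their levels differed by a median of 5.26-fold, and their log2 ratios of pup 2 over pup 1 by a median of 0.38. The gap in log2 ratio was 1.29 between Mir99a and Mirlet7c-1, and 1 of the 83 pairs had a larger one. It was 1.06 between Mir100 and Mirlet7a-2, with 2 larger, and 0.84 between Mir99b and let-7e, with 6 larger. The let-7 and miR-125 neighbours differed by cluster. Mirlet7c-1 and Mir125b-2, with 46522 bases between them, had a gap of 0.77, and 9 of the 83 pairs had a larger one. Let-7e and Mir125a had a gap of 0.37, with 43 larger, and Mirlet7a-2 and Mir125b-1 a gap of 0.09 across 45114 bases, with 73 larger. Neighbouring pairs share genes and are not independent, so these places are a description of the 2 libraries.

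**Figure D4:**
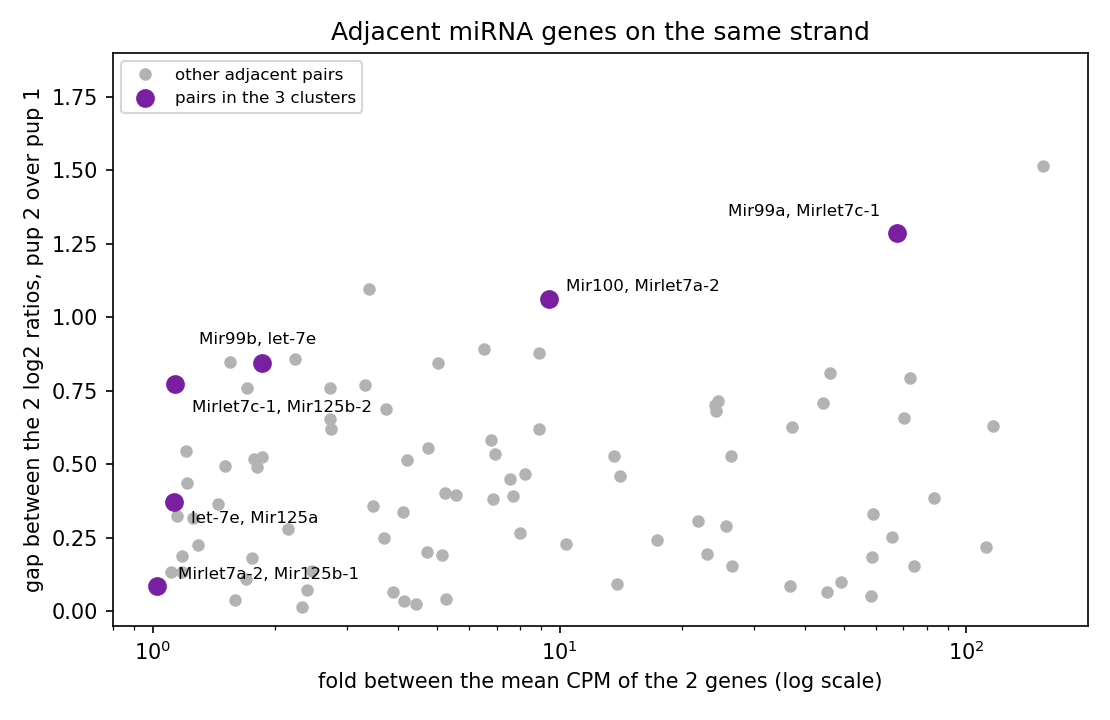
Neighbouring genes at most 50 kb apart on 1 strand, with the fold between their mean levels (log axis) against the gap between their log2 ratios of pup 2 over pup 1. Grey points are 83 pairs outside the clusters and coloured points the pairs within them, where the let-7e label stands for Gm25927. Mir99a with Mirlet7c-1 and Mir100 with Mirlet7a-2 lie high, at 1.29 and 1.06.

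Grouped by seed, the members had very different weights in the counted reads of their families. In RefSeq the seed ACCCGUA belongs to the 3 miR-99/100 genes alone, so the clusters held all of its counts, 49632 CPM in pup 1 and 63563 in pup 2. The seed GAGGUAG is shared by 14 genes. The sum over 13 of them, with let-7e read through Gm25927 and without Mirlet7f-1, was 214739 and 164405 CPM, of which the cluster members gave 6.25% and 4.74%. Most of this counted sum came from genes outside the clusters, led by Mirlet7g with a mean of 57170 CPM. Multi-mapped reads are left out of it, though the let-7a and let-7c 5p strands each stand at 2 genes. Counts from 3p strands of the members, which carry other seeds, could not be set apart. The percentages therefore describe counted reads and not the whole family. Of the 8 let-7 and miR-98 genes outside the clusters that could be read on their own strand, all 8 were lower in pup 2 on the CPM scale, where 41.9% of the 284 genes were. Their median log2 ratio was -0.31, and Mirlet7b alone was past 2-fold. Mirlet7f-2 was at a ratio of 0.996 with an interval that spans 1 (0.964 to 1.03), a difference smaller than the 0.10 by which TMM scaling moved the median log2 ratio of all genes. No test of the family was possible with these 2 libraries.

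The seed CCCUGAG is shared by 6 genes, and beside the members only Mir351 had counts. Mir351, a gene of the X-linked miR-322 cluster, had 7050 CPM in pup 1 and 10349 CPM in pup 2, while Mir125a went the other way. Summed over this seed, pup 1 had 20517 CPM and pup 2 had 20481 CPM. The cluster members gave 65.6% of that sum in pup 1 and 49.5% in pup 2. Mir351 shares the first 8 bases with miR-125b-5p and then diverges, as its sequence shows.
miR-351-5p: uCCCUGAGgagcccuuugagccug

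**Figure D5:**
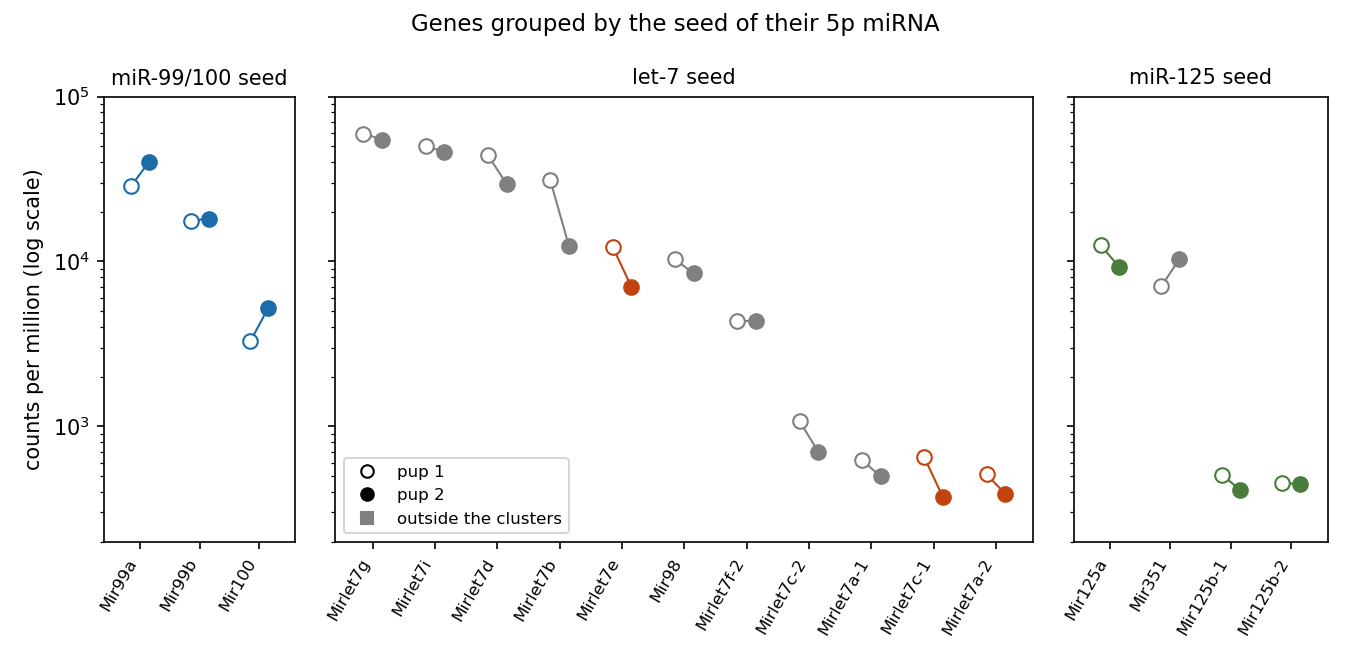
Levels in CPM (log axis) of genes whose 5p strand carries each seed, with open points for pup 1, filled points for pup 2, colour for cluster members and grey for genes outside the clusters. Genes with no counts are left out. Mir351 is higher in pup 2 and Mir125a lower.

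The miR-10 genes are known relatives of miR-99/100 with a shifted seed, and their strand is shown for that shift.
miR-10a-5p: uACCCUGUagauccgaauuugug
MiR-10a-5p has a run of 11 bases in common with miR-100-5p, GUAGAUCCGAA, starting at base 7 in miR-10a and at base 6 in miR-100. Mir10a had 75963 CPM in pup 1 and 73019 CPM in pup 2, and Mir10b had 33671 and 35221 CPM. Mir10a was thus above every member in both pups, while the range of Mir10b lay within that of Mir99a. Pup 2 over pup 1 was 0.961 (0.954 to 0.969) for Mir10a and 1.05 (1.03 to 1.06) for Mir10b, against 1.40 for Mir99a and 1.59 for Mir100.

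Among all genes, the nearest in mean level to Mir99a were Mirlet7d at 36747 ± 10253 CPM and Mir10b at 34446 ± 1096 CPM (SD, n = 2), neither of which differed from it beyond the spread. Mir99b stood between Mirlet7b and Mir143, Mir100 between Mir149 and Mir151, and Mir125a between Mir30e and let-7e. With 2 libraries, a gene's pattern is a single ratio. Among the 78 genes averaging 1000 CPM or more, the log2 ratios nearest to that of Mir99a (0.49) were those of Mir181c, Mir411 and Mir122. Nearest to Mir100 (0.67) were Mir7b, Mir351 and Mir16-1, and nearest to Mir99b (0.04) were Mir127, Mir93 and Mir10b. The nearest gap was 0.0079 for Mir99a, 0.11 for Mir100 and 0.00096 for Mir99b, and no link between the genes was tested.

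Markers of other tissues and cell types ranged from 0 to levels above every member. The liver miRNA Mir122 had 2979 CPM in pup 1 and 4081 CPM in pup 2. Muscle markers summed to 83.1 and 415 CPM, with Mir1a-1, Mir133a-1 and Mir133a-2 at 0, kidney markers to 144 and 201 CPM, and erythroid markers to 281 and 301 CPM. All 5 measured brain genes of miR-9 and miR-124 were at 0. The counts leave out reads that mapped to several loci, so each 0 covers only reads assigned to a single gene. How many loci carry these marker strands was not tested, so a 0 does not show that the miRNA was absent. The 2 measured neuroendocrine markers summed to 37893 and 30853 CPM, and the endothelial Mir126a had 81621 and 102288 CPM. The markers of liver, muscle, kidney, erythroid cells and endothelium were higher in pup 2, and their part in the differences of the members was not tested. No miRNA here marks the adrenal cortex by itself, so the labelled tissue could not be checked further. In whole glands, fewer cells of a type and less RNA per cell cannot be told apart.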

How the data were processed

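Each library came as a table of unscaled counts of reads for every miRNA gene, as the authors deposited it. Per the sample notes deposited with them, the build was mm10 with GENCODE M4. The aligner is not given in the sources used here. Left out of the totals were the 4 rows that name no gene. They held multi-mapped reads (34.9% and 32.2% of all reads), reads without a gene on the same strand (4.03% and 3.86%), unmapped reads (10.6% and 11.2%) and ambiguous reads (0). Reads opposite to a gene, such as those of let-7e, fall among the reads without a same-strand gene. Of 1973 rows, 1894 matched GENCODE M21, also on mm10, and 2 member rows had another identifier version. CPM is the same-strand count over the same-strand total, and for Gm25927 the opposite-strand count over that total. Log2 ratios had 1 CPM added as a prior and were ranked over the genes averaging 10 CPM or more. A count of 0 allows 3 counts (2.65 and 0.902 CPM).

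The libraries differed beyond counting error over 284 genes (chi-square 51515 on 283 degrees of freedom), so they are not a single library under both labels. Shares have Clopper-Pearson intervals, ratios between pups exact conditional Poisson intervals, and ratios within a library normal intervals on the log scale, all at 95%. Reads without molecular identifiers are not independent molecules. Ratios between pups and their intervals were tested on simulated Poisson counts. The intervals assume the same model, so this checked the computation and not the spread between animals or from amplification. Python 3.11.15, scipy 1.17.1, edgeR 4.0.16 (TMM) and DESeq2 1.42.0 (size factors) were used, and no p-value was computed. The text names all members, the let-7, miR-98 and miR-10 genes outside the clusters where they share a seed or sequence, the genes next to a member in mean level, and the 3 genes nearest in log2 ratio to the leading member of each cluster. The members and lists were chosen with earlier results of these data known. Mir351 and the genes of the opposite-strand column were chosen after their values were seen.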

Additional observations from a re-analysis of the deposited data

Results flagged for a closer look

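Beside Gm25927, which stands in for let-7e, 12 genes had a mean opposite-strand level of 10 CPM or more, a signal in a column otherwise unused here. For 11 of the 12, GENCODE M21 annotates a miRNA gene on the other strand, and for 0 of those 11 was that miRNA gene among the rows read here. The highest were Gm24321 opposite Mir409 with 9500 and 30339 counts, Gm24083 opposite Mir191 with 4890 and 12902 counts, and Gm25301 opposite Mir378a with 3957 and 10949 counts. Gm24111, opposite Mirlet7f-1, had 343 and 781 opposite-strand counts, below each of the 9 cluster members in pup 1 and in pup 2.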

How the results depend on the processing

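Shares over all reads placed on the genome were lower, as the larger denominator requires. Here multi-mapped reads and reads without a same-strand gene were added to the denominator. The shares were 2.06% for the chromosome 16 cluster, 0.299% for chromosome 9, 2.22% for chromosome 17 and 4.58% for the 3 together. Without Gm25927, chromosome 17 took 2.88% and the 3 clusters 6.94%. With the unstranded column, shares moved by less than the SD over pups. With only 1 pup kept, the share of the 3 clusters ran from 7.56% to 8.09%. The number of members higher in pup 2 was 3, and 4 with TMM or DESeq2 scaling, where Mir125b-2 moved from -0.03 to 0.07 and 0.0014 on the log2 scale. The other 34 of 36 alternative log2 ratios kept their sign. With every gene with a count kept, 85 of 635 genes (13.4%) were past 2-fold in place of 15 of 284, and with a prior of 5 CPM 11 were. No member was past it in either setting, and neither could have put one there, since neither enlarges a member's ratio. The settings for the number higher in pup 2 were chosen after seeing the data. No paired analysis was possible because there is a single group. The levels of Mirlet7c-1, Mirlet7a-2, Mir125b-1 and Mir125b-2 rest on 514 to 1479 counts, which limits them more than the other members, and the excluded multi-mapped reads limit them further.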
